A study of Rattus norvegicus with 18 samples.

Results

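The genes described here are 10 members of the Toll-like receptor system of the rat, followed in the proximal stump of the sciatic nerve over the first 9 h after resection. Each was taken from the array by its gene name or by the transcript accession of its probe, and the 10 genes had 11 probes among the 41012 different probes of the array, Cd14 having 2. The receptors were Tlr2, Tlr3, Tlr4, Tlr6 and Tlr7, the co-receptors were Cd14 and Ly96, and the cytoplasmic members were the adaptor Myd88 and the kinases Irak4 and Irak3. The study hybridised 18 one-colour arrays, 3 for each of 6 time points, with total RNA from nerve of adult male Sprague-Dawley rats of 180 to 220 g. Under anaesthesia, which every group received, 1 cm of the left sciatic nerve was removed above its division, and 0.5 cm of the proximal stump was taken at 0, 0.5, 1, 3, 6 or 9 h after injury. The 0 h arrays served as the control, and sham-operated nerve was not analysed here. The labels do not state whether an array held 1 rat or a pool, so the p-values measure the spread between arrays, which may be partly technical.

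Toll-like receptors are membrane proteins that recognise microbial molecules and products of damaged tissue. Tlr2 works in pairs with Tlr1 or Tlr6 and binds lipopeptides, Tlr4 binds lipopolysaccharide together with Ly96 (MD-2) after transfer by Cd14, and Tlr3 and Tlr7 sense double-stranded and single-stranded RNA in endosomes. All of these except Tlr3 signal through Myd88, which recruits Irak4, and the pathway ends in NF-kB and the transcription of cytokines, while Irak3 (IRAK-M) restrains it. In peripheral nerve these receptors are known from macrophages, from Schwann cells and from the leukocytes that enter after injury.

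The probes through which the genes were measured are 60 bases long, and the first 30 bases are shown for the genes on which the results turn, with the position of the whole probe in the rn4 build as the files give it. The 11 probes covered 60 bases of genome each, except that of Tlr2, which covered 58, and that of Irak4, which covered 2951.
Tlr2 probe, chr2:175608160-175608217, minus strand: gccagcgggaagtgttttgggcaaatctga
Cd14 brighter probe, chr18:29374990-29375049, minus strand: atccctttttgcactctgaatcccagtcgg
Cd14 dimmer probe, chr18:29375770-29375829, minus strand: agtaccttctaaagcgtgtggacacggaag
Tlr4 probe, chr5:83577410-83577469, plus strand: acagaaaggaacatcattcttctctggatc
Tlr3 probe, chr16:50126045-50126104, plus strand: tagcacttgggtctcggaattcagcacatt

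Promoter sequence from 250 bases before to 50 bases after the transcript start was taken from RefSeq (build GRCr8) for 9 of the 10 genes, Ly96 having no entry in the table used. The consensus of NF-kB, the factor in which the pathway ends, matched on either strand in the promoters of 2 of the 9, Tlr2 and Irak3, and in 7.51% of all 33469 promoters of the table. In Tlr2 it matched at 3 places, starting at positions -206, -205 and -42 from the transcript start, of which the first 2 overlapped. In Irak3 it matched once, at -34. The AP-1 motif TGANTCA was found in Myd88 alone, at -208, and in 7.33% of all promoters. The GAS motif TTCNNNGAA, bound by STAT factors, was also found in Myd88 alone, at -22, and in 8.87% of all promoters. The CRE TGACGTCA (1.83% of all promoters) and the PU.1 motif GAGGAAGT (2.42%) were in none of the 9. These matches are a description of the letters in the window and not of binding. The 3 promoters with a match are shown in the direction of transcription, with the matches in capitals.
Tlr2 promoter, chr2:171504508-171504807, minus strand: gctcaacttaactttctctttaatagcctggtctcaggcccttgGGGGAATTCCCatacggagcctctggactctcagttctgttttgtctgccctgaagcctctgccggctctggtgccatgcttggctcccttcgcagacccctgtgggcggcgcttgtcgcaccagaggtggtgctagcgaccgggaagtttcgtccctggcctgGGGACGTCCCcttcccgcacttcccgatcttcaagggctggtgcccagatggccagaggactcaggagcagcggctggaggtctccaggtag
Irak3 promoter, chr7:57598582-57598881, minus strand: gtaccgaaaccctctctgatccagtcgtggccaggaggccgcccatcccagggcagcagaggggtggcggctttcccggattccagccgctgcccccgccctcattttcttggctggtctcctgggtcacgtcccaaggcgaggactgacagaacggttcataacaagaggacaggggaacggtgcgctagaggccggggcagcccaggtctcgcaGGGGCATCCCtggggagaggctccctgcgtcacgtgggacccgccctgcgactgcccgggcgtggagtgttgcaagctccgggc
Myd88 promoter, chr8:127956181-127956480, minus strand: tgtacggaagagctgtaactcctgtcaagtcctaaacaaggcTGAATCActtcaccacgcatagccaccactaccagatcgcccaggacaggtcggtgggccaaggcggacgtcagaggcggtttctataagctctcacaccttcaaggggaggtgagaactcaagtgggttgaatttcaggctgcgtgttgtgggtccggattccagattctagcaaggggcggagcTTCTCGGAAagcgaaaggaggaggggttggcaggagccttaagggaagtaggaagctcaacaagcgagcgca

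A level is the log2 of the processed signal minus the 75th percentile of the array, so that a difference of 1 is 2-fold, and levels are compared only within a probe. All 11 probes were well above background on all 18 arrays. Arrays of one time point correlated at r from 0.976 to 0.992 over the 32110 probes tested, and between 65.9% and 93.5% of the probes of an array were well above background, the highest share being that of 6 h replicate 1. A list of 8 measured skeletal muscle genes ranged from a mean level of -3.96 on 9 h replicate 2 to 7.29 on 0 h replicate 1, so the arrays held very different amounts of muscle RNA, and the correlation of this list with the 10 genes over the 18 arrays lay between -0.21 and 0.25. The tissue was otherwise nerve by its markers, with 11 Schwann cell genes at a mean level of 4.59 to 4.85 at 0 h. The 0 h and 0.5 h arrays were scanned on 1 day and the 1, 3 and 6 h arrays on another, with 9 h replicates 1 and 2. Differences from 0 h at 1 h and later therefore cannot be told apart from scan day, while differences from 1 h at 3 and 6 h lay within a day, and both are given. Each slide held arrays of 1 time point, so slide and time point cannot be told apart. The 2 sets of comparisons share the later arrays and are not independent.

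Of the 10 genes, 8 changed over the 6 time points and 2, Tlr7 and Ly96, did not pass the test, where 36.4% of all 27198 genes tested were called (limma, unadjusted p under 0.01 and Benjamini-Hochberg adjusted p under 0.05). With the replicate number as a block both passed (adjusted p = 0.0186 for Tlr7 and 0.0267 for Ly96), as they did under 3 and 8 of 31 alternative settings in all. None was called at 0.5 h, where 6.7% of all genes were, although 2 of the 10 had an unadjusted p under 0.05. Only Tlr4 was called at 1 h, and it was lower, where 6.2% of all genes were called and 2.14% were called lower. At 3 h 5 of the 10 were called (14.8% of all genes), 4 higher (8.13%) and 1 lower (6.68%). At 6 h 7 were called (26.4%), 6 higher (13.3%) and 1 lower (13.2%), and the counts were the same at 9 h (32.8%, with 17.2% higher and 15.8% lower). The median difference from 0 h over the 10 genes was 0.57 at 3 h, 0.97 at 6 h and 0.96 at 9 h, against 0.02 to 0.03 over all probes tested. Against 1 h, 3 genes were called at 3 h (11.1% of all genes), all higher (6.25%, with 4.83% lower). Against 1 h, 9 were called at 6 h (25.8%), 8 higher (12.5%) and 1 lower (13.4%). All 10 were called at 9 h against 1 h (27%), 9 higher (12.4%) and 1 lower (14.6%). Of these, Tlr4, Tlr6, Tlr7 and Ly96 had their lowest mean at 1 h. Tlr4, Tlr7 and Ly96 were not called at 9 h against 0 h. Where only the arrays of the second scan day were used, 2 of the 10 were called at 3 h, 7 at 6 h and 7 at 9 h against 1 h. At 3 h these were Tlr2 and Tlr7 in place of Tlr2, Tlr4 and Tlr6.

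**Figure D1:**
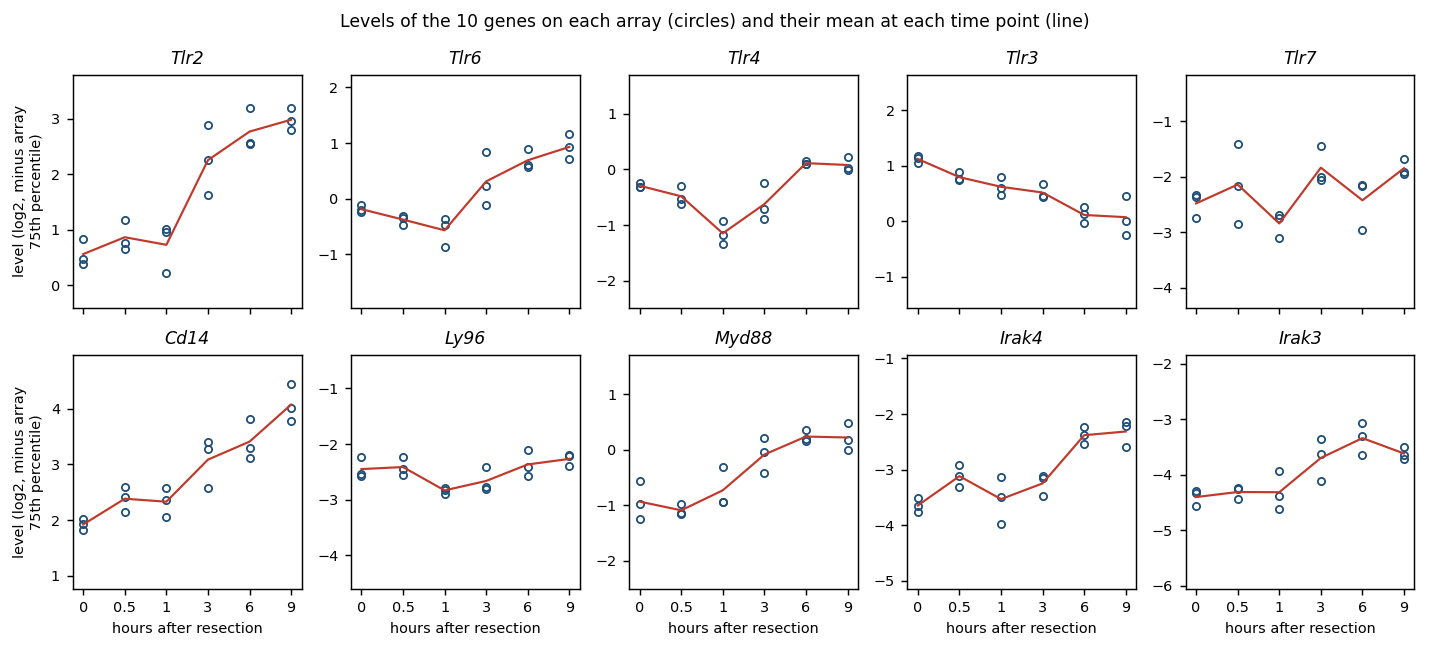
Level of each gene (log2 processed signal minus the 75th percentile of the array) against hours after resection, in 1 panel per gene, with the same span on each vertical axis and the unequal time steps drawn evenly. Circles are the 3 arrays of a time point and the line joins their means; Tlr2 and Cd14 climb from 3 h, Tlr3 declines from 0 h onwards and Tlr4 dips at 1 h.

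Tlr2, the receptor for lipopeptides, had the largest rise among the 10, each taken by its brightest probe. Its level on the 3 arrays was 0.39, 0.47 and 0.83 at 0 h, then 0.65, 0.77 and 1.18 at 0.5 h, and 0.22, 0.96 and 1.01 at 1 h, so the first 3 time points overlapped. It was 1.62, 2.26 and 2.88 at 3 h, 2.57, 2.54 and 3.19 on the 6 h arrays, and 2.79, 2.95 and 3.20 at 9 h, and each of these 9 arrays lay above every earlier one. The rise from 0 h was 3.22-fold at 3 h (log2 change 1.69, SE 0.30, adjusted p = 0.00224), 4.60-fold at 6 h (2.20, adjusted p = 0.000171) and 5.34-fold at 9 h (2.42, adjusted p = 6.16e-05). Against 1 h, within a scan day, it was 1.52 at 3 h and 2.04 at 6 h, and the first of these was lost with normexp (adjusted p = 0.0508) and with only the arrays of the times compared (adjusted p = 0.105). The neighbouring time points from 3 to 9 h overlapped in their arrays. The calls from 0 h held under all 32 alternative settings, with a change at 9 h from 2.24 to 2.55. Where only the arrays of the second scan day were used, the rise from 1 h was 2.14 at 9 h (adjusted p = 0.00742).

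Tlr6, the partner of Tlr2, was called higher at 6 and 9 h. Its level was -0.24 to -0.12 on the 0 h arrays and -0.87 to -0.37 at 1 h. On the 3 h arrays it was -0.12, 0.22 and 0.83, which touched the 0 h range, and the difference of 0.50 did not pass the test (adjusted p = 0.119), although it did without 3 h replicate 1 (adjusted p = 0.0306). At 6 h it was 0.57, 0.61 and 0.89 and at 9 h 0.92, 0.71 and 1.16, above all arrays of 0, 0.5 and 1 h. The rise was 1.84-fold at 6 h (0.88, SE 0.20, adjusted p = 0.00586) and 2.18-fold at 9 h (1.12, adjusted p = 0.000936). From 1 h it was 0.88 at 3 h (adjusted p = 0.0137), a call lost without 1 h replicate 1 or 3 h replicate 3 (adjusted p from 0.0504 to 0.057), within the second scan day (adjusted p = 0.059), with normexp (adjusted p = 0.117) and with only the arrays of the times compared (adjusted p = 0.164). At 6 h it was 1.26 (adjusted p = 0.000613). Across the 18 arrays the levels of Tlr2 and Tlr6 correlated at r = 0.94.

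Tlr4, the lipopolysaccharide receptor, fell and then returned. Its level was -0.32, -0.25 and -0.31 at 0 h, and -0.62, -0.54 and -0.29 at 0.5 h. All 3 arrays of 1 h, at -1.34, -0.93 and -1.18, lay below every array of the other time points. The fall at 1 h was 1.81-fold (log2 change -0.86, SE 0.15, adjusted p = 0.0049), and with the normexp background correction it was -0.68, where the median over all probes was 0.32, and did not pass (adjusted p = 0.123). At 3 h the level was -0.90, -0.72 and -0.25, on the 6 h arrays 0.10, 0.15 and 0.09, and at 9 h 0.23, 0.02 and -0.01. The difference from 0 h at 3 h was -0.33 and did not pass (adjusted p = 0.162), but did without 3 h replicate 3 (adjusted p = 0.0254). The 6 and 9 h arrays lay above all those of 0 h, but the differences from 0 h of 0.41 (95% interval, not adjusted for the number of probes, from 0.08 to 0.73, adjusted p = 0.0601) and 0.37 (adjusted p = 0.0695) did not pass the test, and they did without 3 h replicate 3 (adjusted p = 0.0216 and 0.0265). The rise from 1 h was 2.41-fold at 6 h (1.27, adjusted p = 7.97e-05) and 2.35-fold at 9 h (1.23, adjusted p = 6.99e-05), and it passed under all 34 alternative settings. At 3 h it was 0.52 (adjusted p = 0.0413), a call that was lost when any 1 of 12 of the 18 arrays was left out (adjusted p from 0.0506 to 0.163), and within the second scan day (adjusted p = 0.11).

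The macrophage list had a lower mean level at 1 h than at 0 h, with few of its genes called. The mean level of 12 macrophage genes was 1.83 to 2.22 on the 1 h arrays against 2.27 to 2.50 at 0 h. The 1 h range overlapped those of 0.5 h (2.12 to 2.57), 3 h (2.18 to 2.71) and 6 h (2.13 to 2.50). Aif1, a marker of these cells, was 0.54 lower on the log2 scale at 1 h than at 0 h (log2 change -0.54, adjusted p = 0.0237). Of the 12, 10 did not pass the test at 1 h, where 6.2% of all genes were called, and the remaining one, Csf1r, was called higher through 1 of its 2 probes. Over the 18 arrays this list correlated with Tlr7 at r = 0.68, with Ly96 at 0.66, with Tlr6 at 0.63, with Tlr4 at 0.62, with Tlr2 at 0.57 and with Cd14 at 0.53, and with the other 4 genes at -0.21 to 0.46. Its part in the Tlr4 result was not tested. In tissue RNA, fewer cells that carry a transcript and less of it in each cell cannot be told apart.

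Tlr3, the sensor of double-stranded RNA that signals without Myd88, was the one gene of the 10 called lower at 3, 6 and 9 h. Its level was 1.05, 1.13 and 1.18 at 0 h, 0.74, 0.88 and 0.76 on the 0.5 h arrays, 0.80, 0.59 and 0.47 on those of 1 h, and 0.43, 0.45 and 0.67 at 3 h. It was -0.04, 0.25 and 0.13 at 6 h and 0.45, -0.24 and 0.01 at 9 h. The 3 arrays of 0 h lay above the other 15, and the order of the time point means was the order of time, with overlapping arrays between 0.5 and 1 h, between 1 and 3 h and between 6 and 9 h. The fall from 0 h was 2.01-fold at 6 h (SE 0.15 on the log2 scale, adjusted p = 0.000324) and 2.06-fold at 9 h (-1.04, adjusted p = 0.000173), and both calls held under all 32 alternative settings. At 3 h it was -0.60 (adjusted p = 0.0163), a call lost without 0 h replicate 2 or 3 or without 3 h replicate 1 or 2 (adjusted p from 0.0506 to 0.0655), and at 1 h -0.50 (adjusted p = 0.067), called without 9 h replicate 1 or 2. From 1 h the fall was smaller, -0.51 at 6 h (adjusted p = 0.0228) and -0.54 at 9 h (adjusted p = 0.0145). Within the second scan day these falls did not pass the test (adjusted p = 0.0745 and 0.12), nor did they with normexp or with each array shifted to its median. With normexp they were -0.42 and -0.41, or -0.03 and -0.02 relative to the median over all probes. The calls were also lost without any 1 of 4 arrays (1 h replicates 1 and 2, 6 h replicates 1 and 3) at 6 h, and of 3 arrays (1 h replicate 1, 9 h replicates 2 and 3) at 9 h.

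Tlr7, the sensor of single-stranded RNA, varied between arrays of one time point and did not pass the test over time (adjusted p = 0.0783). Its level was -2.75 to -2.33 at 0 h, -2.85 to -1.41 at 0.5 h, -3.10 to -2.68 at 1 h, -2.05 to -1.45 at 3 h, -2.95 to -2.15 at 6 h and -1.95 to -1.68 at 9 h. The 9 h arrays lay above those of 0 h, with a difference of 0.63 (unadjusted 95% interval from -0.03 to 1.29, adjusted p = 0.127). The 3 h arrays also lay above those of 1 h, a 2.01-fold difference that did not pass (adjusted p = 0.0542) but did under 10 of 34 alternative settings, among them the second scan day alone (adjusted p = 0.0474) and the replicate block. The difference between 9 h and 1 h was 0.99 (adjusted p = 0.0281), and this call was lost when any of the 6 arrays of those times was left out (adjusted p from 0.0467 to 0.0939), when the day of scanning was blocked (adjusted p = 0.0599) and with normexp (0.33, adjusted p = 0.488).

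Cd14, the co-receptor that hands lipopolysaccharide to Tlr4 and serves Tlr2 as well, rose from 3 h on both of its 2 probes. On the brighter probe the level was 2.02, 1.92 and 1.82 at 0 h, 2.42, 2.14 and 2.59 on the 0.5 h arrays, and 2.06, 2.36 and 2.57 at 1 h. It was 2.58, 3.28 and 3.40 at 3 h, 3.29, 3.12 and 3.82 on the 6 h arrays, and 3.78, 4.01 and 4.44 at 9 h. All 15 arrays after injury lay above the 3 of 0 h, but the differences of 0.46 at 0.5 h and 0.41 at 1 h did not pass the test (adjusted p = 0.279 and 0.323). The rise was 2.25-fold at 3 h (1.17, SE 0.24, adjusted p = 0.00591), 2.81-fold at 6 h (1.49, adjusted p = 0.000591) and 4.46-fold at 9 h (2.16, adjusted p = 2.63e-05). With normexp the brighter probe did not pass at 3 h (0.88, or 0.44 relative to the median over all probes, adjusted p = 0.0683), while the dimmer one did (1.30, adjusted p = 0.038). In the fit described, the dimmer probe rose by 1.41, 1.84 and 2.57 on the log2 scale at 3, 6 and 9 h, with an SE of 0.33. From 1 h the brighter probe rose by 0.76 at 3 h, which did not pass (adjusted p = 0.0606) but did under 9 of 34 alternative settings, among them the replicate block and the fits without 3 h replicate 1, 6 h replicate 3 or 9 h replicate 3 (adjusted p from 0.0169 to 0.0494), and by 1.08 at 6 h (adjusted p = 0.00499) and 1.75 at 9 h (adjusted p = 0.000156).

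Ly96, the co-receptor that carries the lipopolysaccharide pocket of the Tlr4 complex, was not called against 0 h at any time in the fit described. Its level was -2.53, -2.58 and -2.24 at 0 h, -2.82, -2.79 and -2.89 on the 1 h arrays, and -2.21, -2.39 and -2.20 at 9 h, the 1 h arrays lying below those of 0 and 9 h. It did not pass the test over time (adjusted p = 0.0374 but unadjusted p = 0.0141). The difference at 1 h from 0 h was -0.38 (adjusted p = 0.132), and it was called with quantile scaling (-0.50), with each array shifted to its median (-0.55) and with the deposited log2 table (-0.49). Relative to the median over all probes these 3 values were -0.47, -0.40 and -0.46, and that of the fit described was -0.41. With normexp it was 0.21, or -0.11 relative to the median over all probes. The difference at 9 h from 0 h was 0.19 (unadjusted 95% interval from -0.12 to 0.49, adjusted p = 0.325). Against 1 h it was 0.46 higher at 6 h (adjusted p = 0.0274), a call lost without any of 1 h replicates 1 to 3 or 6 h replicates 1 and 3 (adjusted p from 0.0481 to 0.117), and 0.57 higher at 9 h (adjusted p = 0.00908). Neither passed within the second scan day (adjusted p = 0.0518 and 0.0583). With normexp they were -0.10 and -0.04 and did not pass, but that correction put the median over all probes at -0.39 in both comparisons, and relative to it Ly96 was 0.28 and 0.35 higher. Of the other 9 genes its level followed that of Tlr4 most closely (r = 0.81 over the 18 arrays).

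**Figure D2:**
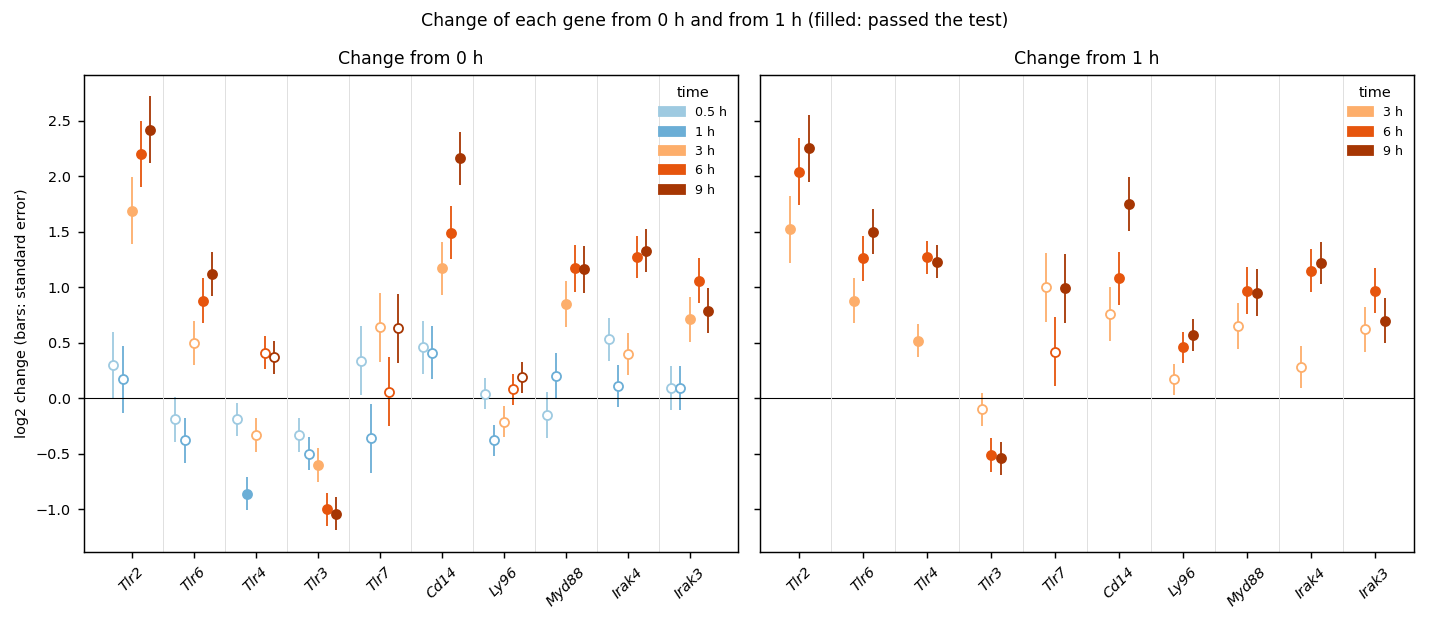
Log2 change of each gene from 0 h (left) and from 1 h (right) with its standard error as a bar; colour gives the time point, and a filled point passed the test while an open one did not. Cd14 is shown by its brighter probe; 9 of the 10 genes are above 1 h at 9 h and Tlr3 is below it.

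Myd88, the adaptor shared by most Toll-like receptors and by the interleukin-1 receptor family, rose from 3 h. Its level was -0.98, -1.25 and -0.57 at 0 h, -1.15 to -0.98 at 0.5 h, and -0.94, -0.94 and -0.31 at 1 h. It was -0.42, -0.05 and 0.21 at 3 h, 0.35, 0.16 and 0.20 on the 6 h arrays, and 0.18, 0.00 and 0.48 at 9 h, so that all 6 later arrays lay above every array of the first 3 time points. The rise was 1.80-fold at 3 h (0.85, SE 0.21, adjusted p = 0.0168), a call lost without 0 h replicate 2 or 3 h replicate 2 or 3 (adjusted p from 0.0589 to 0.0804), with normexp (0.80, adjusted p = 0.0531) and with only the arrays of the times compared (adjusted p = 0.0756). It was 2.26-fold at 6 h (1.17, adjusted p = 0.00123) and 2.23-fold at 9 h (1.16, adjusted p = 0.00101), and these calls held under all 32 alternative settings. From 1 h it was 0.65 at 3 h, which did not pass (adjusted p = 0.0682) but did under 7 of 34 alternative settings, among them the replicate block and the fits without 1 h replicate 3 or 3 h replicate 1, and 0.97 at 6 h (adjusted p = 0.00438).

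Irak4, the kinase that Myd88 recruits first, rose at 6 h. Its level was -3.66, -3.76 and -3.51 at 0 h, -3.32 to -2.91 at 0.5 h, -3.97 to -3.13 at 1 h and -3.47 to -3.12 at 3 h. It was -2.23, -2.53 and -2.38 at 6 h and -2.21, -2.14 and -2.59 at 9 h, above all 12 earlier arrays. The 0.5 h arrays also lay above those of 0 h, a difference of 0.53 that did not pass (adjusted p = 0.127) but did with array weights. The rise from 0 h was 2.40-fold at 6 h (1.27, SE 0.19, adjusted p = 0.000397) and 2.52-fold at 9 h (1.33, adjusted p = 0.000191), and from 1 h it was 1.15 and 1.22. With normexp it was 0.89 at 6 h and 0.90 at 9 h and did not pass (adjusted p = 0.34 and 0.275). From 1 h it was then 0.26 and 0.28 and did not pass (adjusted p = 0.669 and 0.647), and relative to the median over all probes it was 0.65 and 0.67.

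Irak3, the member of the kinase family that limits signalling, rose from 3 h and had its highest mean at 6 h, where its arrays overlapped those of 9 h. Its level was -4.30, -4.33 and -4.57 at 0 h, -4.44 to -4.23 at 0.5 h and -4.61 to -3.94 at 1 h. It was -4.11, -3.62 and -3.36 at 3 h, -3.07, -3.65 and -3.30 on the 6 h arrays, and -3.64, -3.71 and -3.50 at 9 h. All 9 arrays from 3 h on lay above the 3 of 0 h. The rise was 1.63-fold at 3 h (0.71, SE 0.20, adjusted p = 0.0333), 2.09-fold at 6 h (1.06, adjusted p = 0.00184) and 1.73-fold at 9 h (0.79, adjusted p = 0.00874). The 3 h call was lost without any 1 of the 0 h arrays or without 3 h replicate 2 or 3 (adjusted p from 0.0552 to 0.129). The 9 h call was lost with quantile scaling (0.47, adjusted p = 0.0427 with an unadjusted p above the threshold) and with the deposited log2 table (0.45, adjusted p = 0.0433), and so was the 3 h call. With normexp the change was 1.25 at 3 h, 0.59 at 6 h and 0.37 at 9 h, or 0.81, 0.62 and 0.41 relative to the median over all probes, and did not pass (adjusted p = 0.168, 0.739 and 0.878). The difference from 1 h was 0.62 at 3 h, which did not pass (adjusted p = 0.0699) but did under 6 of 34 alternative settings. It was 0.97 at 6 h and 0.70 at 9 h, and the latter was lost within the second scan day (0.64, adjusted p = 0.14) and without 1 h replicate 1 or 2 or 9 h replicate 3 (adjusted p from 0.0607 to 0.0837). With normexp the differences from 1 h at 6 and 9 h were -0.24 and -0.47, neither passing, which relative to the median over all probes was 0.14 and -0.08.

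Between 6 and 0 h the median difference was higher among the dimmer probes of the array than among the brighter ones. With the tested probes divided by mean level into 6 equal groups, the median difference between 6 and 0 h was 0.50 in the dimmest group, 0.19 in group 2, 0.03 in group 3 and -0.14 in the brightest group, against 0.03 over all probes. Irak3 lay in group 2, and Irak4, Ly96 and Tlr7 in group 3. Tlr4, Myd88 and the dimmer Cd14 probe lay in group 4, Tlr2, Tlr3 and Tlr6 in group 5, and the brighter Cd14 probe in group 6. The change of Irak3 at 6 h (1.06) was larger than the shift of its group, whose part in it was not tested.

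Genes with the pattern most like each member over the 18 arrays were taken by Pearson correlation as a description, all arrays sharing the same time course. For Tlr2 these were Pglyrp1, a peptidoglycan-binding protein of neutrophil granules (r = 0.982), Clec4b2 (0.98) and the immunoglobulin receptor Fcgr2a (0.98). For Cd14 they were the metalloproteinase Mmp9 (r = 0.976), Pstpip1 (0.971) and Slpi-ps1 (0.966). For Tlr6 they were the granule proteoglycan Srgn (r = 0.984), Lypd8l1 (0.983) and Cd200r1 (0.981). For Tlr4 they were the complement receptor C3ar1 (r = 0.938), Fastkd5 (0.927) and Tex30 (0.915). For Myd88 they were Fbxo27 (r = 0.967), Txnrd1 (0.964) and Sectm1b (0.964), and for Irak3 Sgms2 (0.956), Alkbh1 (0.946) and Txnrd1 (0.932). For Irak4 they were 1700009N14Rikl (r = 0.968), Lactb (0.967) and Itpa (0.96), and for Tlr3 Cep15 (0.901), Sumf2 (0.896) and RT1-M3-1 (0.896). Among the members themselves Tlr2, Tlr6, Cd14 and Myd88 correlated with one another at r from 0.87 to 0.95, and Tlr3 correlated negatively with each of the other 9, most with Cd14 (r = -0.86).

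Markers of neutrophils, the leukocytes that enter injured tissue first, rose from 0.5 h, when none of the 10 genes was called. The mean level of the 11 neutrophil genes tested of 13 listed was -4.87 to -4.46 on the 0 h arrays, -3.56 to -2.43 at 0.5 h, -2.95 to -2.39 at 1 h, -2.17 to -0.83 at 3 h, -1.19 to -1.17 at 6 h and -1.30 to -0.85 at 9 h. Of the 11 genes 4 were called higher at 0.5 h and 5 at 1 h, beside 6.7% and 6.2% of all genes called in either direction. By 3 h 9 were called higher and by 9 h 10, beside 8.13% of all genes called higher at 3 h and 17.2% at 9 h. Of the defining genes, Mmp8 and Elane were not well above background on any 0 h array. Over the 18 arrays this list correlated with Cd14 at r = 0.89, with Tlr2 at 0.88, with Irak3 at 0.84, with Myd88 at 0.83, with Tlr6 at 0.73, with Irak4 at 0.66, with Tlr7 at 0.45, with Tlr4 at 0.35, with Ly96 at 0.19 and with Tlr3 at -0.86. The 12 macrophage genes stood at a mean level of 2.41 to 2.55 at 9 h against 2.27 to 2.50 at 0 h, with 3 called higher and 1 lower, a share near the 32.8% of all genes. The 11 Schwann cell genes stood at 4.27 to 4.69 at 9 h, with 5 called lower, beside 15.8% of all genes. Fibroblast genes, 7 in number, stood at 6.12 to 6.18 at 0 h and 5.78 to 5.85 at 9 h, with 5 called lower, beside the same 15.8%. Of 4 T and B cell genes tested of 8 listed, 2 were called higher at 9 h, their mean level being -3.64 to -3.10 at 0 h and -2.88 to -1.89 at 9 h. Of 9 endothelial genes 3 were called lower at 9 h, beside 15.8% of all genes, with mean levels of 0.67 to 0.90 at 0 h and 0.44 to 0.69 by then. None of 6 mast cell genes was called by limma at 9 h (32.8% of all genes), where the brightest probes of Kit and Mcpt1 had unadjusted p = 0.0261 and 0.0416. The part of these cell types in the changes of the 10 genes was not tested.

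**Figure D3:**
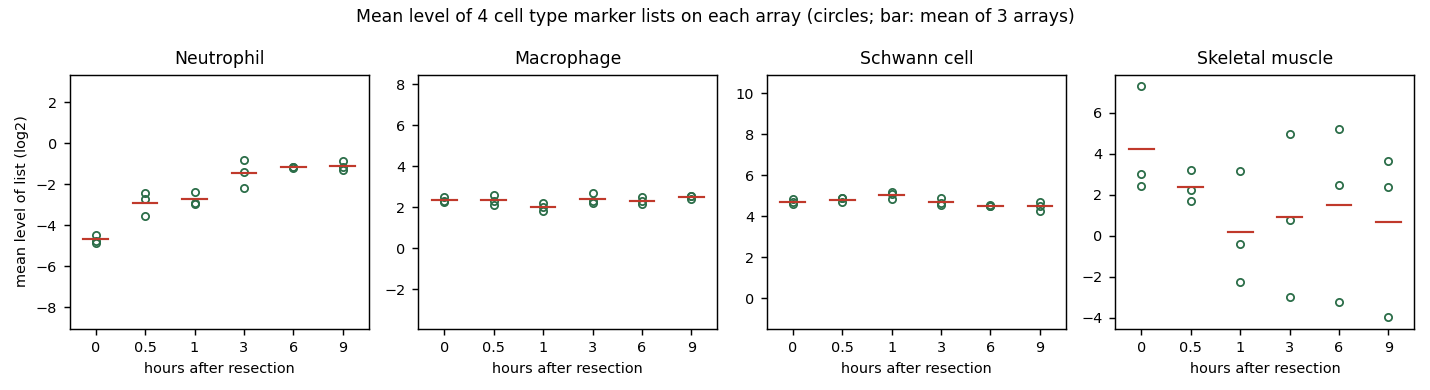
Mean level (log2, relative to the 75th percentile of the array) of 4 lists of cell type markers on each array against hours after resection, with circles for the arrays, bars for the mean of 3 arrays and the same span on every vertical axis. The neutrophil list climbs from -4.87 to -4.46 at 0 h to -1.30 to -0.85 at 9 h, and the skeletal muscle list scatters within time points.

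Of 79 further genes of the pathway, chosen with earlier results known, 67 were tested, and their median difference from 0 h was 0.07 at 1 h, 0.40 at 3 h and 0.49 at 9 h. At 1 h 14 were called, 12 higher and 2 lower, and at 9 h 37 were called, 33 higher and 4 lower, beside the 6.2% and 32.8% of all genes given above. All 7 ligands of damaged tissue were called at 9 h, 5 higher and 2 lower, the lower ones being the matrix proteoglycan Bgn (-0.67, adjusted p = 0.000215) and the nuclear protein Hmgb1. Hmgb1 was called through 1 of its 3 probes only (-0.44, adjusted p = 0.00649), while its brightest probe (-0.29, adjusted p = 0.0614) and the remaining one (1.83, adjusted p = 0.103) did not pass. Among them S100a8 and S100a9, alarmins that neutrophils hold in quantity and that are in the neutrophil list too, were 69.8-fold (log2 change 6.13, SE 0.37, adjusted p = 1.61e-07) and 43.5-fold (5.44, adjusted p = 1.13e-06) higher, and the matrix protein Tnc was 4.03-fold higher (2.01, adjusted p = 0.000138).

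Of the 8 other Toll-like receptors listed, Tlr5, Tlr9 and Tlr10 were tested, and the other 5 were not matched by name. Tlr5, the flagellin receptor, was 1.23 higher at 9 h (adjusted p = 0.0268). Tlr10 was not well above background on any array of 0, 0.5, 1 or 3 h and was at least 1.34-fold higher at 9 h (adjusted p = 0.0198), taking the lowest signal well above background as its level at 0 h. Tlr9, the sensor of unmethylated DNA, differed by 1.28 at 9 h and did not pass (unadjusted p = 0.0157). None of the 3 passed the test over time. Of the adaptors, Ticam2, which links Tlr4 to interferon signalling, was well above background on all 3 arrays at 0 h and on none at 0.5 or 1 h, at least 1.30-fold lower at 1 h (adjusted p = 0.01). It was also called lower at 3 h (-0.95, SE 0.25, adjusted p = 0.0211), where 1 of 3 arrays had it well above background, and was at -5.15 at 9 h against -5.03 at 0 h, where the difference did not pass. Sarm1 did not pass in any comparison. Of 6 accessory proteins tested only Lbp, which carries lipopolysaccharide to Cd14, was called at 9 h, 2.09-fold higher (1.07, SE 0.25, adjusted p = 0.00523), beside the 32.8% of all genes called.

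All 8 negative regulators tested changed over time, beside 36.4% of all genes. At 1 h 4 of them were called higher, beside 6.2% of all genes called in either direction, and none of the 10 genes was called higher then. The phosphatase Dusp1 was 6.78-fold higher at 1 h (2.76, SE 0.30, adjusted p = 0.000148), and its mean level went from 0.25 at 0 h to 3.01 at 1 h and 0.28 at 9 h. The repressor Atf3 was 4.71-fold higher at 1 h (2.24, adjusted p = 3.31e-07), going from 3.20 to 5.43 and then to 3.70 at 9 h. Socs1, an inhibitor of cytokine signalling, was 3.64-fold higher at 3 h (1.87, adjusted p = 0.002). Of 16 kinases and ubiquitin ligases, 7 changed over time, a share near the 36.4% of all genes. Map3k8 was 2.50-fold higher at 1 h (1.32, adjusted p = 0.000201), Ripk1 was 1.89-fold higher at 3 h (0.92, adjusted p = 0.00226) and Tab1 was lower at 9 h (-0.54, adjusted p = 0.000921).

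Of 6 tested members of the interleukin-1 receptor family, whose signalling receptors use Myd88, 1 was called higher at 0.5 h, none at 1 h and 5 at 3, 6 and 9 h, beside 8.13%, 13.3% and 17.2% of all genes called higher at the later times. The early one was Il1rl2, and its probe was not well above background on any array of 0, 0.5 or 1 h. Il1rl1, the receptor of interleukin-33, was on its brightest probe at -3.78 at 0 h and 1 h and 3.29 at 9 h. On this probe it was 134-fold higher at 9 h than at 0 h (7.07, SE 0.38, adjusted p = 4.18e-08). Its other tested probe passed in no comparison and was 1.05 higher at 9 h (adjusted p = 0.209). Il1r2, the decoy receptor of interleukin-1, which does not signal, was 36.5-fold higher (5.19, adjusted p = 3.04e-08), and Il1rl2, not well above background at 0 h, was at least 2.81-fold higher (adjusted p = 5.64e-05). Among 14 target genes 5 were called at 0.5 h (6.7% of all genes), 5 at 1 h (6.2%) and 10 at 9 h (32.8%), all of them higher except 1 at 9 h. Il6 was not well above background at 0 h and was at least 36.6-fold higher at 1 h and at least 130-fold higher at 6 h (adjusted p = 1.46e-10). The chemokine Cxcl2 was 277-fold (8.11, adjusted p = 1.55e-10) and Il1b 21.7-fold higher at 6 h (4.44, adjusted p = 1.28e-06). Both had reached mean levels of 1.95 and 1.29 at 0.5 h from -5.25 and -1.39, a time at which Tlr2, Cd14 and Myd88 were not called. The order of these changes was not tested. Of 5 transcription factors Irf5 was higher at 9 h (0.83, adjusted p = 0.0142), Nfkb1 was higher (0.57, adjusted p = 0.00644) and Irf3 lower (-0.44, adjusted p = 0.00604) at 6 h.

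**Figure D4:**
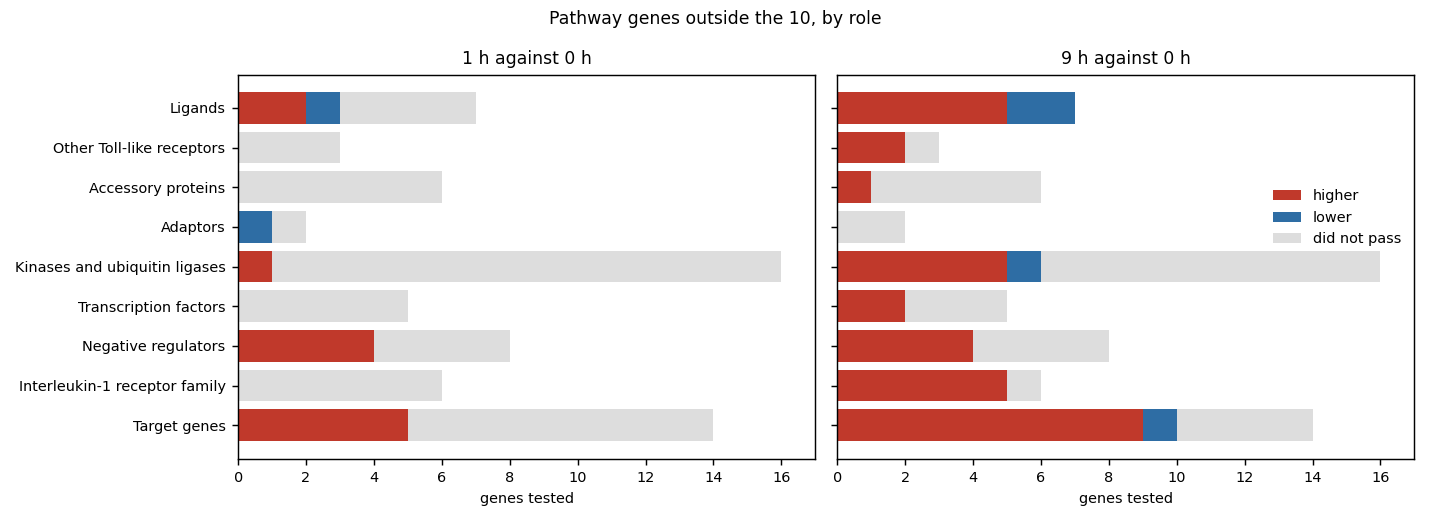
Pathway genes outside the 10, by role, at 1 h (left) and 9 h (right) against 0 h; the length of a bar is the number of genes tested, red the part called higher, blue the part called lower and grey the part that did not pass. At 1 h negative regulators and target genes hold 9 of the 14 calls, and at 9 h calls are found in every role except the adaptors.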

How the data were processed

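Total RNA from 18 nerve samples was labelled with Cy3 and hybridised to one-colour Agilent rat arrays. Each array has a scanner file, deposited by the authors, in which the processed signal is an intensity after background subtraction (Feature Extraction 10.5.1.1, per the file headers), and a table of log2 values, which the authors made from the same arrays (rank correlation 1 with the scanner values, column medians near 7.75, its centring not given in the sources used here).

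Control spots and outlier spots (58 to 179 per array) were left out, spots of a probe were averaged, and the log2 of the signal minus the 75th percentile of the array was used. A probe was kept (32110 of 41012) if at some time point all 3 arrays had it well above background. All 6 time points were fitted together with limma 3.58.1 in R 4.3.3 and p-values adjusted over all probes by Benjamini-Hochberg. A gene was called if any probe had p under 0.01 and adjusted p under 0.05, and its brightest probe by mean level is given. By accession or symbol, 21166 probes were named from RefSeq. Genes named are the 10 members, the 3 closest in pattern to each member that changed over time, the listed receptors and adaptors, and in each pathway role the 3 with the largest change from 0 h among those that changed over time. The members and lists were chosen with earlier results of these data known. The number of arrays limits the precision. The fit was tested on simulated data. Alternatives covered background correction, scaling, the deposited log2 table, filters, priors, array weights, a replicate block, scan day and each array left out.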

Additional observations from a re-analysis of the deposited data

How the results depend on the processing

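The number of the 10 genes called kept within 1.5 times its main value under most settings, and the exceptions follow. With the normexp background correction it was 0 for 1 h and 3 for 3 h against 0 h, and 0, 5 and 5 for 3, 6 and 9 h against 1 h. Under it the median over all probes was 0.32 rather than 0.03 for 1 h and 0.44 rather than 0.02 for 3 h against 0 h, and -0.39 rather than -0.04 and 0.00 for 6 and 9 h against 1 h. The signs of Ly96 (-0.10 and -0.04) and Irak3 (-0.24 and -0.47) for 6 and 9 h against 1 h turned, but relative to that median Ly96 (0.28 and 0.35) and Irak3 for 6 h (0.14) kept their direction and Irak3 for 9 h (-0.08) did not. Irak3 and Irak4 lost their calls for 6 and 9 h, and quantile scaling and the deposited log2 table lost those of Irak3 for 3 and 9 h against 0 h. The cause was not tested. Where a 2-fold change was also required it was 0 for 1 h and 2 for 3 h against 0 h, and 1, 5 and 5 for 3, 6 and 9 h against 1 h. At 1 h it was 3 with each array shifted to its median and 2 with quantile scaling, the deposited log2 table, probes well above background on all 18 arrays, or a trended robust prior. At 0.5 h array weights gave 1, which was Irak4. With only the arrays of the times compared, it was 3 at 3 h against 0 h and 0 at 3 h against 1 h, where fewer arrays estimate the spread. At 3 h against 1 h it was 5 with quantile scaling or the deposited log2 table, and 6 with the median shift, the filter on all 18 arrays, array weights or the trended robust prior. With 1 array left out, 8 to 9 genes changed over time. Against 0 h the number called was 0 to 0 for 0.5 h, 1 to 2 for 1 h, 2 to 5 for 3 h and 7 to 8 for both 6 and 9 h, and against 1 h it was 1 to 6 for 3 h, 7 to 9 for 6 h and 7 to 10 for 9 h.

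Replicate numbers in the labels do not state a pairing, and arrays that share a number correlated in their deviations at a median r of 0.07 (from -0.26 to 0.56), with 11 of 18 arrays closest to one of their own number. With the replicate number as a replicate block, 10 genes changed over time. Against 0 h the number called was 0 for 0.5 h, 1 for 1 h, 5 for 3 h and 7 for both 6 and 9 h, and against 1 h it was 6, 9 and 10 for 3, 6 and 9 h. All 11 probes were well above background on all 18 arrays.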
